A study of Mus musculus with 6 samples.

Results

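The alpha- and beta-defensin genes were followed in the testis of mice with and without Prss55, a testis serine protease. Every non-control probe whose gene name on the array began with Defa or Defb and a number, or with Defa-rs, was taken. This gave 43 probes of 39 gene names among the 41174 probes and 27376 gene names of the array. Of these, 13 probes named 11 alpha-defensin genes and 30 probes named 28 beta-defensin genes. The choice used names only and no signal.

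Defensins are small cationic peptides folded by disulfide bonds between conserved cysteines, and they damage the membranes of microbes. In the mouse, alpha-defensins, also called cryptdins, are known from the granules of Paneth cells in the small intestine, where the metalloprotease encoded by Mmp7 cuts the active peptide from a precursor. Beta-defensins are made by many epithelia, and a large share of them is known from the male reproductive tract, where some coat the maturing sperm. Some beta-defensins also act as ligands of receptors such as CCR6 on leukocytes and sperm.

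Total RNA of whole testes from 3 Prss55-/- and 3 wt males of 6 to 8 weeks was hybridised to 6 one-colour whole mouse genome arrays. The null allele had been made by homologous recombination, both genotypes came from intercrosses of heterozygous mice, and the line was kept on a mixed 129Sv/C57BL/6 background. Mice on such a background can differ at loci other than Prss55, and the strain origin of the defensin loci in each mouse was not tested. Each array held RNA of 1 labelled mouse sample, so the p-values measure the spread between these samples, with 3 a genotype. All 3 Prss55-/- arrays lay on 1 slide and the wt arrays on 2 others, so genotype and slide cannot be told apart.

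The Prss55 probe read 15.08, 14.95 and 14.93 on the Prss55-/- arrays and 15.87, 15.77 and 16.01 on the wt arrays, in normalized log2 signal. It was lower by 0.90 on the log2 scale in Prss55-/- (SE 0.08, limma adjusted p = 0.0100), and it remained well above background on all 6 arrays. The limma adjusted p was above 0.05 with a replicate block (0.101) and without Prss55-/- replicate 2 (0.0596), replicate 3 (0.0698) or wt replicate 1 (0.0627), and it was 0.0713 in the methods' t-test. Whether this probe lies in the deleted part of the gene was not determined. Between 69.5% and 72.9% of all spots were well above background on each array, and no defensin spot was saturated or called an outlier. Prm1, Tnp1 and Clu, markers of germ and Sertoli cells, read 16.44 or more on every array. In whole tissue, fewer cells of a type and less RNA per cell cannot be told apart.

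The probes are 60-base oligonucleotides, and several defensin genes are so alike that their probes share long runs. The first set holds 3 alpha-defensin probes of different gene names, all of them high on Prss55-/- replicates 2 and 3. Other alpha-defensin probes that were high on these arrays, among them Defa1, Defa6, Defa22 and Defa23, are not printed. Capitals mark the 15-base run that is common to the 3 probes of this set.
Defa20: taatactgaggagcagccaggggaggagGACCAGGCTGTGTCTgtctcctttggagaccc
Defa3, probe 2: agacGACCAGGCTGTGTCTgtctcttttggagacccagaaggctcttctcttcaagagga
Defa4: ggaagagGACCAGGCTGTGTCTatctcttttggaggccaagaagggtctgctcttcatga
The brighter Defa3 probe has another sequence and gave another pattern.
Defa3, probe 1: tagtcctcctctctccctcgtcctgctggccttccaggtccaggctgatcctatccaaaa
These probes lie at chr8:22619859-22619918 for Defa20, chr8:22427232-22427291 for the dimmer and chr8:22427132-22427192 for the brighter Defa3 probe, and chr8:22675993-22676052 for Defa4, in the mm9 (NCBI37) coordinates of the array files. Which exon each probe lies in was not determined.

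The second set holds the tested beta-defensin probes with the widest spread among the Prss55-/- arrays. Capitals mark the TGT and TGC codons, which encode cysteine, in a reading frame that is open over the probe (for Defb34, the frame of the aligned Defb15 probe).
Defb11: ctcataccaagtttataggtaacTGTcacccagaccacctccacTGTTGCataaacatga
Defb15: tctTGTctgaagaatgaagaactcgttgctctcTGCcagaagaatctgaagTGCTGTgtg
Defb34: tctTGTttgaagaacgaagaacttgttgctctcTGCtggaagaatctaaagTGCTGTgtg
Defb14: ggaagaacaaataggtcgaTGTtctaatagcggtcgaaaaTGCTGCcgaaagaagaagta
They lie at chr8:23015921-23015980 for Defb11, chr8:23040417-23040476 for Defb15, chr8:19126406-19126465 for Defb34 and chr8:19195152-19195211 for Defb14 (mm9). The Defb15 and Defb34 probes align without a gap and share 54 of 60 bases. Counted from the 5′ end of the Defb15 probe, the differences are C7T, T15C, C24T, C37T, A38G and G48A, with the Defb15 base first, and they leave the 4 marked codons in place. RNA of one gene may therefore add to the signal of the other probe, and this was not tested. The array files list accessions of several RefSeq genes for 9 of the 43 probes, 8 of them alpha-defensin probes. The Defa20 probe also lists Defa32 and Defa33, and the brighter Defa3 probe also lists Defa17, Defa23 and Defa31. The accessions that could be matched for the Defa4 probe were those of Defa35, Defa36 and Defa37. For the Defa6 probe they were those of Defa24 and Defa30. A gene name here thus stands for a group of near copies.

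Most defensin probes were not called well above background on any array. The scanner software called 10 probes of 9 genes well above background on all 6 arrays, 10 probes on 1 to 5 arrays, and 23 probes on none. These shares were not computed over all probes of the array. The probes called on no array read between 2.69 and 4.69 in normalized log2 signal, while the lowest signal called well above background was 4.79 to 5.26, depending on the array. Detected on every array were Defb19 with both probes, Defb36, Defb14, Defb11, Defb15, Defb41, Defb3, Defb20 and the brighter Defa3 probe.

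The number of detected defensin probes differed among the Prss55-/- mice. It was 13, 17 and 18 of 43 on the Prss55-/- arrays and 11, 12 and 12 on the wt arrays. The difference lay in the alpha-defensins, with 2, 8 and 9 of 13 probes detected on the Prss55-/- arrays and 1 on each wt array. Of the 30 beta-defensin probes, 11, 9 and 9 were detected on the Prss55-/- arrays and 10, 11 and 11 on the wt arrays. Prss55-/- replicate 1 was thus close to the wt arrays in both families.

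**Figure D1:**
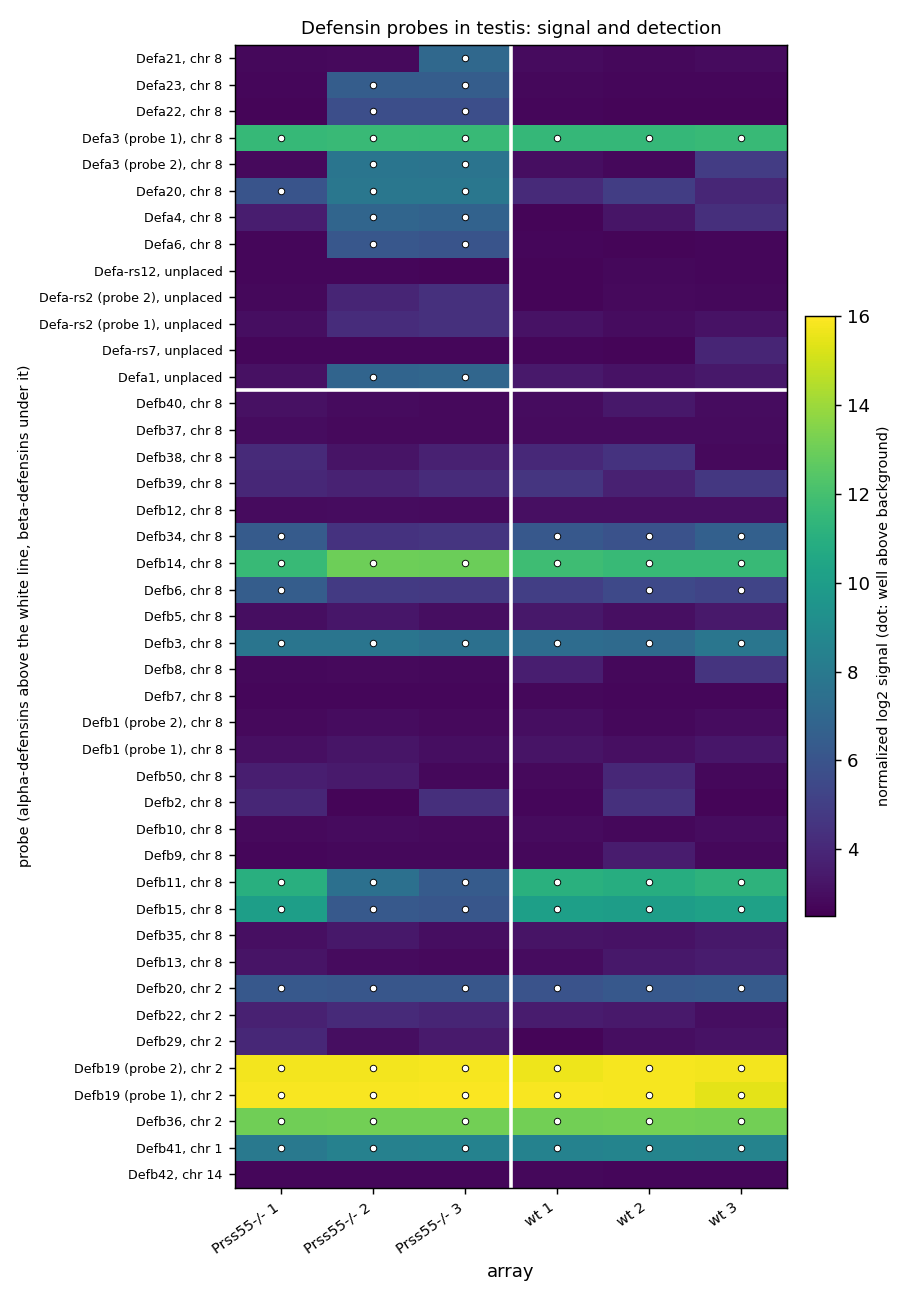
Normalized log2 signal (colour) of the 43 defensin probes (rows, with their chromosome) on the 6 arrays (columns), where a white dot marks a probe well above background on that array. The alpha-defensin rows carry dots mainly on Prss55-/- replicates 2 and 3 (8 and 9 of 13 probes), against 1 probe on each wt array.

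Defb19 gave the brightest defensin signal, and it was nearly level over the mice. This beta-defensin is known from the Sertoli cells of the male gonad. Its first probe read 15.88, 15.85 and 15.92 on the Prss55-/- arrays and 15.87, 15.84 and 15.43 on the wt arrays. Its second probe, which overlaps the first by 40 bases, read 15.77, 15.78 and 15.81 against 15.68, 15.80 and 15.78. The differences were 0.17 (SE 0.12) and 0.03 (SE 0.05), and neither passed (limma adjusted p = 0.488 and 0.764). The genotypes overlapped on both probes, and wt 3, the lowest array on the first probe, was not the lowest on the second.

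The other members of the chromosome 2 group were level too. Defb36 read 13.06, 13.12 and 13.14 in Prss55-/- and 13.14, 13.18 and 13.10 in wt. Defb20 was dimmer, at 6.22, 6.10 and 6.13 against 5.95, 6.24 and 6.33. The differences were -0.04 (SE 0.05) for Defb36 and -0.02 (SE 0.10) for Defb20 on the log2 scale, and neither passed the test (limma adjusted p = 0.726 and 0.922). Over the 4 tested probes of chromosome 2, the 3 Prss55-/- arrays lay within 0.12 log2 units of each other. Defb22 and Defb29, their neighbours on chromosome 2, were detected on no array.

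Defb41, the tested member on chromosome 1, is known from the epididymis. It read 7.97, 8.46 and 8.47 in Prss55-/- and 8.51, 8.60 and 8.54 in wt. The groups did not overlap, yet the difference of -0.25 (SE 0.14) did not pass the test (limma adjusted p = 0.386). Without Prss55-/- replicate 1 it was -0.09 (limma adjusted p = 0.474).

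Genotype was then compared for probes detected throughout, which means on each of the 3 Prss55-/- arrays, on each of the 3 wt arrays, or on both. This took in 28606 probes, 12 of them defensin probes of 11 genes, 2 alpha and 10 beta. No defensin gene passed an adjusted p of 0.05 in limma, while 1.21% of all tested probes did (346 probes). The study's methods asked for an unadjusted p below 0.05 and a 2-fold change, and 3 of the 12 probes met both, against 0.608% of all tested probes. They were Defa20, higher in Prss55-/- (0.308% of all tested probes) and entered through the Prss55-/- arrays alone, and Defb11 and Defb15, lower (0.301%). By the unadjusted limma p alone these 3 passed as well, beside 19.1% of all tested probes. In the methods' t-test Defa20 was the only defensin gene that met both thresholds. Of the 12, 6 were higher and 6 lower, and their median difference was 0.0049 on the log2 scale beside 0.0019 over all tested probes. Only Defa20 and Defb41 had groups that did not overlap, a state that 26.3% of all tested probes shared.

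**Figure D2:**
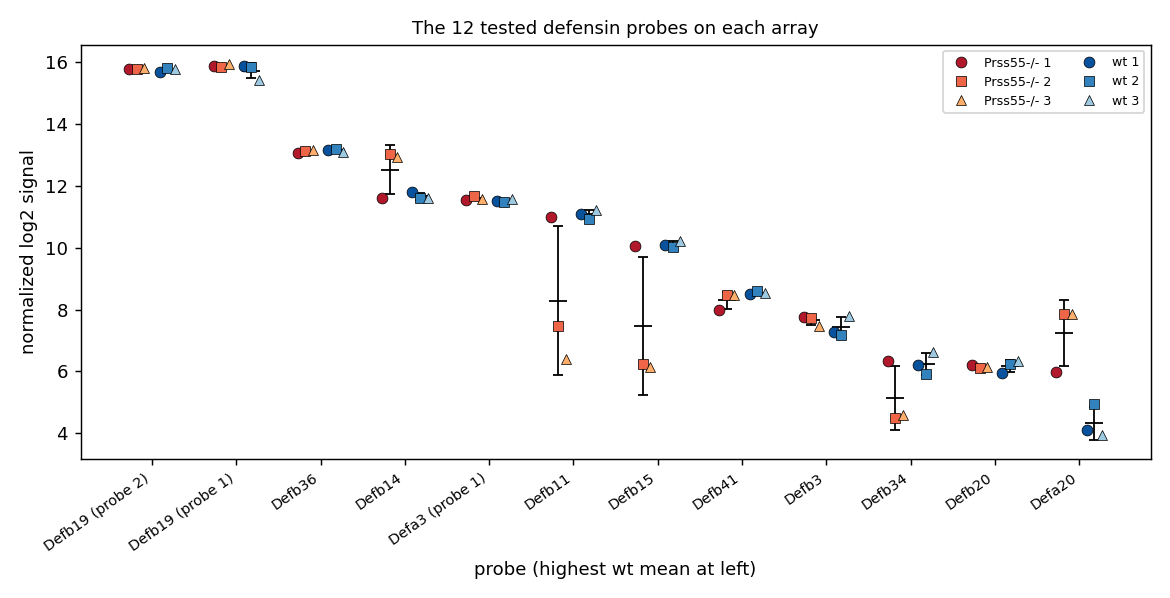
Normalized log2 signal (y axis) of the 12 tested defensin probes (x axis, ordered by wt mean) on each of the 6 arrays, with the mean and SD of each genotype as black bars. For Defb11, Defb15 and Defb34 replicate 1 of Prss55-/- sits with the wt arrays and replicates 2 and 3 lie lower, and for Defb14 replicates 2 and 3 lie higher.

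These differences went with a wide spread among the Prss55-/- mice. For 5 of the 12 probes the 3 Prss55-/- arrays spanned over 1 log2 unit, which 1.99% of all tested probes did. All 5 lie on chromosome 8, where 7 of the tested probes lie. Among the wt arrays 1 of the 12 probes, Defa20, spanned over 1 log2 unit (1.00), which 1.615% of all tested probes did. None of the wt readings of Defa20 was well above background. The 3 Prss55-/- arrays shared a slide, so this spread lay within 1 slide.

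Of the 2 alpha-defensin probes tested, Defa20 differed more between the genotypes. It read 5.99, 7.86 and 7.86 on the Prss55-/- arrays, all well above background, and 4.11, 4.94 and 3.94 on the wt arrays, none of them well above background. All Prss55-/- values lay above all wt values. The measured means were 7.24 ± 1.07 and 4.33 ± 0.54 (SD, n = 3 each). Set against the lowest signal called well above background, Defa20 was at least 4.48-fold higher in Prss55-/- (limma, unadjusted p = 0.00193, adjusted p = 0.0747). It had entered the test through the Prss55-/- arrays alone, so these p-values set it against undetected signals. The fitted difference was 2.91 on the log2 scale and 1.23 with normexp background correction (offset 50, limma adjusted p = 0.0784). Its size thus depended on the background correction, and the bound holds only for that of the software. Of the alpha-defensin probes detected only in Prss55-/-, it was the one detected on replicate 1 as well.

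The brighter Defa3 probe, the one alpha-defensin probe detected on all arrays, was level. It read 11.55, 11.68 and 11.59 in Prss55-/- and 11.51, 11.48 and 11.59 in wt, a difference of 0.08 (SE 0.06, limma adjusted p = 0.479). The dimmer Defa3 probe read 2.86, 7.73 and 7.69 in Prss55-/- and 3.02, 2.80 and 4.92 in wt. The 2 probes of Defa3 thus disagreed, since the dimmer one was detected on Prss55-/- replicates 2 and 3 and on no other array.

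Further alpha-defensin probes behaved like the dimmer Defa3 probe, although they were not detected on enough arrays to be tested. Defa1 read 3.08, 6.86 and 6.93 in Prss55-/- and 3.40, 3.16 and 3.38 in wt. Defa4 read 3.59, 6.91 and 6.77 against 2.70, 3.27 and 4.34. Defa6 read 2.71, 6.15 and 6.00 against 2.74, 2.69 and 2.73. In each of these, replicates 2 and 3 were well above background and the other 4 arrays were not.

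Defa22 and Defa23 had the same detection. Defa22 read 2.69, 5.75 and 5.75 in Prss55-/- and 2.72, 2.68 and 2.70 in wt, and Defa23 read 2.74, 6.49 and 6.46 against 2.81, 2.73 and 2.74. In all, 6 alpha-defensin probes were detected on Prss55-/- replicates 2 and 3 and nowhere else. The share of all array probes with this detection was not computed, and probes of near copies are not separate genes. Defa21 was detected on replicate 3 alone, at 7.06, with 2.80 and 2.85 on replicates 1 and 2 and 2.80 to 2.88 in wt. Replicates 2 and 3, which were close on the other detected alpha-defensin probes, thus differed on Defa21.

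The remaining alpha-defensin probes were detected on no array. Both Defa-rs2 probes were nonetheless brighter on the same pair of arrays, at 2.78, 3.90 and 4.36 in Prss55-/- against 2.69, 2.84 and 2.78 in wt for one and 2.98, 4.21 and 4.37 against 3.13, 2.95 and 3.18 for the other. Defa-rs12 stayed between 2.70 and 2.79 on all arrays. Defa-rs7 stayed between 2.69 and 2.74 except on wt 3, where it read 3.91. Defa1 and the Defa-rs probes have no position in the array files. The Defa1 and Defa6 probes share 51 of 53 aligned bases and the Defa23 and Defa6 probes 39 of 42, so RNA of one gene may add to the signal of another probe, which was not tested.

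Defb11 and Defb15, beta-defensins of the male tract, were low on those arrays. Defb11 read 11.00, 7.47 and 6.40 in Prss55-/- and 11.09, 10.93 and 11.23 in wt. Replicate 1 lay within the wt range, and replicates 2 and 3 lay below every wt array, though still well above background. The means were 8.29 ± 2.41 and 11.08 ± 0.15 (SD, n = 3 each). The difference was -2.79 on the log2 scale (SE 1.12, limma, unadjusted p = 0.0469, adjusted p = 0.255), and -1.85 without replicate 3 (adjusted p = 0.499).

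Defb15 behaved alike. It read 10.06, 6.25 and 6.14 in Prss55-/- and 10.10, 10.03 and 10.23 in wt, with all 6 arrays well above background. Replicate 1 was again within the wt range. The difference was -2.64 (SE 1.04, limma, unadjusted p = 0.0437, adjusted p = 0.248). It was -2.02 without Prss55-/- replicate 2, -1.97 without replicate 3 and -1.98 with normexp background correction.

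Defb34, whose probe resembles that of Defb15 in the sequences printed above, was dimmer and had the same order. It read 6.35, 4.49 and 4.58 in Prss55-/-, where replicate 1 alone was well above background, and 6.22, 5.91 and 6.62 in wt. The difference was -1.11 (SE 0.52, limma adjusted p = 0.312). It was -0.43 with normexp background correction (limma adjusted p = 0.307).

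Defb14, the mouse counterpart of the human epithelial defensin DEFB103 and a ligand of CCR6, was high on the same arrays as the alpha-defensins. It read 11.60, 13.03 and 12.95 in Prss55-/- and 11.80, 11.59 and 11.59 in wt. Replicate 1 lay within the wt range and replicates 2 and 3 lay above it. The difference was 0.86 (SE 0.38, limma, unadjusted p = 0.0624, adjusted p = 0.288).

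Defb6 and Defb3, whose probes follow that of Defb14 on chromosome 8, did not share this order. Defb3 read 7.76, 7.74 and 7.48 in Prss55-/- and 7.27, 7.18 and 7.81 in wt, a difference of 0.24 (SE 0.18, limma adjusted p = 0.501). Its probe also lists Defb4 and Defb8. Defb6 was detected on Prss55-/- replicate 1 and on wt 2 and wt 3, at 6.48, 4.79 and 4.76 in Prss55-/- and 5.02, 5.49 and 5.25 in wt, and was not tested. Replicate 1 held the highest Defb6 value of the 6 arrays, and replicates 2 and 3, not well above background, held the lowest.

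By position, the defensin probes of chromosome 8 fall into a beta-defensin group around Defb14 and, further along, the alpha-defensin probes followed by the beta-defensins from Defb1 to Defb13. The signals that were high on Prss55-/- replicates 2 and 3 came from the alpha-defensin stretch and from Defb14. Those that were low came from Defb11, Defb15, Defb34 and the untested Defb6. By these readings, both directions occurred in both groups of probes. In the group around Defb14, however, the low signals of Defb34 and Defb6 were not well above background on those replicates. RNA of Defb15 may also add to the signal of the Defb34 probe, which was not tested. Defb35 and Defb13, next to Defb15, and Defb1, Defb2, Defb9, Defb10 and Defb50, between the alpha-defensins and Defb11, were detected on no array. In the group around Defb14, Defb5, Defb7, Defb8, Defb12, Defb37, Defb38, Defb39 and Defb40 were likewise detected on none. Between the outermost defensin probes of chromosome 8 the array has 13 probes of other genes, and 9 of them were tested. All 9 lie between the group around Defb14 and the alpha-defensins, and none inside either. For none of these did the Prss55-/- arrays span over 1 log2 unit (at most 0.63). One of the 2610005L07Rik probes read 8.25, 7.63 and 7.63 in Prss55-/- and 8.56, 8.36 and 8.44 in wt, lowest on replicates 2 and 3 like Defb11, and it did not pass (limma adjusted p = 0.149). Another neighbouring probe had the same order, at 10.20, 9.78 and 9.69 against 10.44, 10.39 and 10.39 (limma adjusted p = 0.125). The remaining tested neighbours, the further 2610005L07Rik probes included, did not have it, and on each of them replicate 2 read above replicate 1.

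**Figure D3:**
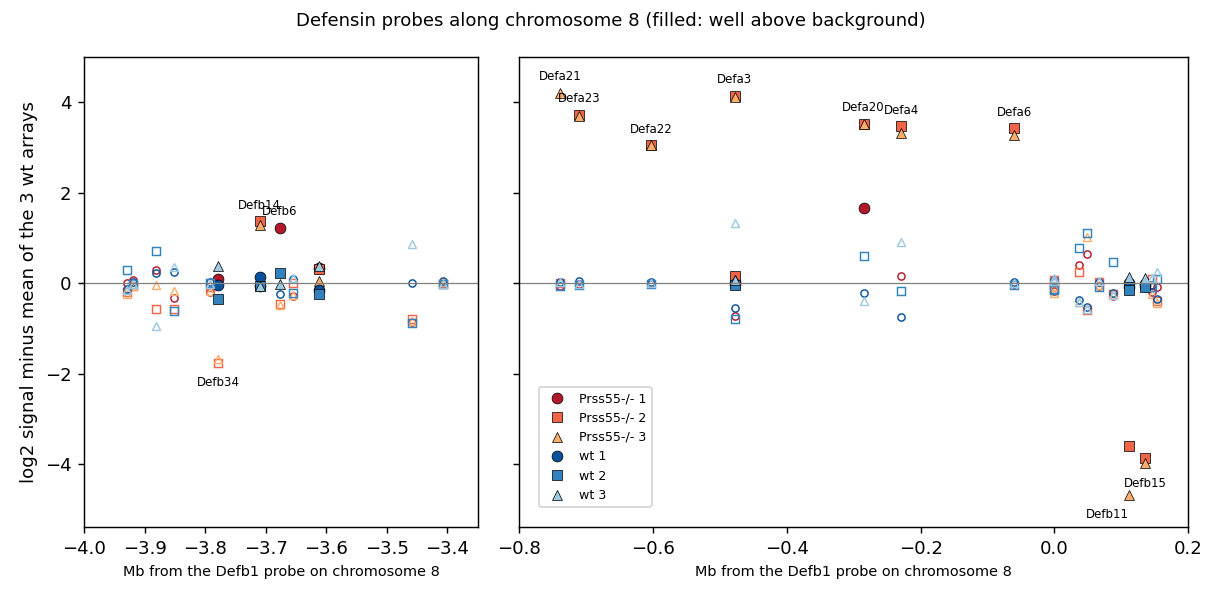
Signal of each array minus the mean of the 3 wt arrays (y axis, log2) for the defensin probes of chromosome 8, against their distance from a Defb1 probe (x axis, Mb), with filled symbols for arrays on which the probe was well above background. Most alpha-defensin probes have filled symbols on Prss55-/- replicates 2 and 3 alone, so their heights are not measured differences from wt, while Defb11 and Defb15, filled on all 6 arrays, lie low on those replicates.

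Leaving out Prss55-/- replicate 1 changed the calls. With that array removed, 5 of the 11 tested genes passed an adjusted p of 0.05 in limma, while 2.99% of all tested probes did. The same 5 passed at an unadjusted p below 0.05 and 2-fold (0.863% of all tested probes). Defa20 (at least 6.88-fold, adjusted p = 0.00963) and Defb14 (log2 difference 1.33, SE 0.09, adjusted p = 0.00409) were higher in limma. Defb11 (-4.14, SE 0.32, adjusted p = 0.00664), Defb15 (-3.93, SE 0.08, adjusted p = 0.000160) and Defb34 (at least 2.36-fold, adjusted p = 0.0237) were lower in limma. Defb34 is given as a bound because neither remaining Prss55-/- array was well above background for it. Each array was left out in turn, and this one stood apart in these same probes, so the smaller p-values are no independent support.

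Repeating the detection filter on the 5 remaining arrays let 6 further alpha-defensin probes enter, and 11 defensin genes then passed the adjusted threshold (2.99% of the 28744 probes tested). These 11 also passed at an unadjusted p below 0.05 and 2-fold (0.988%). Defa3 counted among them by its dimmer probe alone (limma adjusted p = 0.0486), since its brighter probe did not pass (0.418). The 6 further probes entered through the 2 Prss55-/- arrays on which they were high, so that their passing describes the filter as well as the mice. Their bounds ran from at least 1.61-fold for Defa22 to at least 6.27-fold for the dimmer Defa3 probe. When instead any other single array was left out, no defensin gene passed the adjusted threshold and Defa20 alone passed at an unadjusted p below 0.05 and 2-fold.

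**Figure D4:**
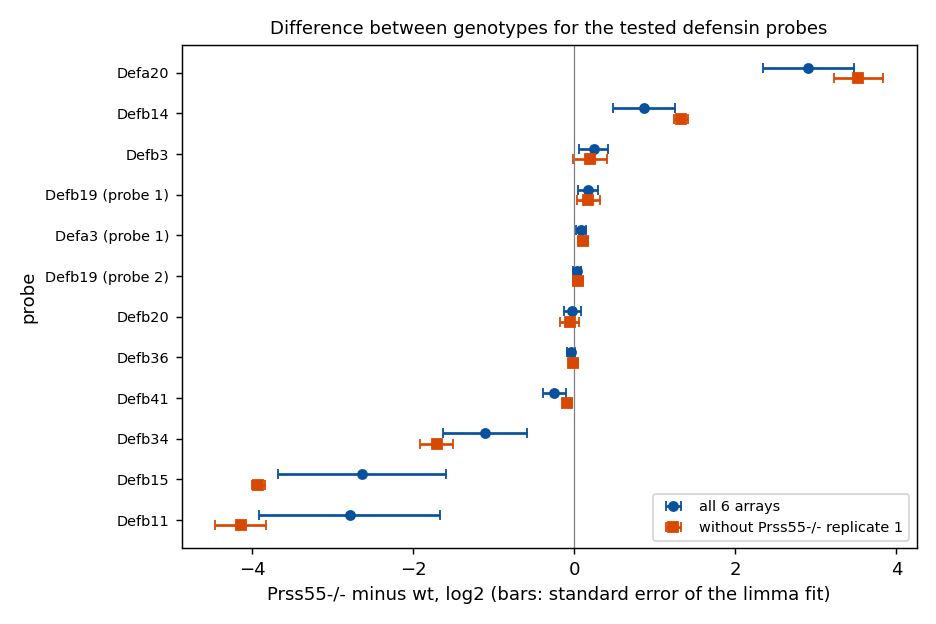
Log2 difference between Prss55-/- and wt (x axis, with the standard error of the limma fit) for the 12 tested defensin probes (y axis), over all 6 arrays (circles) and without Prss55-/- replicate 1 (squares). Defb11 moves from -2.79 to -4.14 and Defb15 from -2.64 to -3.93, while Defb19, Defb20, Defb36 and the brighter Defa3 probe stay near 0. For Defa20 and Defb34 one group lies at background, so the plotted size is not a measured one.

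Defb42, the one defensin probe on chromosome 14, lies 1.03 Mb from the Prss55 probe. It read 2.71 to 2.78 on all 6 arrays and was detected on none. Defb1, a widespread epithelial beta-defensin, was detected with neither probe (2.80 to 3.34).

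A list of genes of defensin processing, of receptors and of innate immune signalling held no change that passed the test. Not all of its genes act on defensins themselves. Of the 13 genes, 7 were tested and none passed the adjusted threshold in either direction. Their median difference was -0.06 on the log2 scale. Mmp7, the protease that activates intestinal alpha-defensins, was detected on no array (2.94 to 3.11). The transcript for CCR6 was present, at 10.58, 10.38 and 10.50 in Prss55-/- and 10.22, 10.29 and 10.45 in wt. Rela, Myd88 and Furin, which encode a transcription factor subunit, an adaptor of Toll-like receptors and a proprotein convertase, had mean differences of -0.04, -0.06 and 0.09, and none of them passed.

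Other antimicrobial genes were examined in the same way. Of 17, 9 were tested and none passed the adjusted threshold, with a median difference of -0.29. Lcn2, which encodes a siderophore-binding protein, read 13.54, 11.89 and 12.20 in Prss55-/- and 13.53, 13.06 and 13.32 in wt, so that replicates 2 and 3 were the lowest here too. Slpi, a protease inhibitor of secretions, read 11.89, 7.28 and 10.43 against 10.21, 10.83 and 9.89. Slpi thus varied among the Prss55-/- mice in another order. Lyz2 and Bpi read 13.24 to 13.85 and 12.51 to 12.64 over the 6 arrays.

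Markers of other cell types that a testis sample could hold were examined beside the defensins. Of 6 Paneth cell genes, Mmp7, Pla2g2a and Itln1 were detected on no array, and none of the 3 tested passed (median difference -0.48). Lyz1 was the brightest of them, at 10.52 to 11.00 in Prss55-/- and 10.57 to 11.20 in wt. Ang4 and Reg3g were dimmer, though also detected on all 6 arrays. Ang4 read 6.14, 5.52 and 5.53 in Prss55-/- and 6.41, 6.15 and 6.53 in wt, a difference of -0.635. Reg3g read 5.30, 5.31 and 5.20 against 5.65, 5.41 and 6.18, a difference of -0.48. The summed signal of the list, which is mostly that of Lyz1, was 11.10, 11.04 and 10.63 in Prss55-/- and 11.29, 10.69 and 11.16 in wt, in log2 units. The part of Paneth cell RNA in the alpha-defensin signals was not tested. The Lyz1 transcript closely resembles that of Lyz2, the lysozyme of macrophages.

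Of 7 neutrophil genes, Ngp, Camp, Ltf, S100a8 and Elane were detected on no array and S100a9 on wt 1 and wt 2. Mpo, the myeloperoxidase of neutrophil granules, was detected on all 6 arrays, at 10.49, 9.86 and 9.72 in Prss55-/- and 10.38, 10.40 and 10.41 in wt. It was the one gene of the list that was tested and did not pass (difference -0.37, SE 0.19, limma adjusted p = 0.350). The summed signal of the list, mostly that of Mpo, was 10.54, 9.93 and 9.79 in Prss55-/- and 10.48, 10.59 and 10.47 in wt. It too was lowest on Prss55-/- replicates 2 and 3. Its part in the defensin results was not tested. All 9 macrophage genes were tested and none passed (median difference -0.14), with Aif1, C1qc, C1qb and Mrc1 the brightest and list sums of 16.89 to 17.02 against 16.86 to 17.01. These sums are mostly the signal of Aif1, at 16.78 to 16.96, while C1qc read 10.32 to 10.66. Of 15 epididymal genes on the array, 8 were detected on no array, among them Lcn5, Lcn8, Crisp1, Adam7 and Gpx5, and the list summed to 16.89 to 16.95 in Prss55-/- and 16.94 to 17.00 in wt. Cst8 and Cst12 were its brightest genes, at 16.39 to 16.53 and 14.95 to 15.15, and the sum is mostly theirs. None of the 6 epididymal genes tested passed the adjusted threshold (median difference 0.11). Lcn9, Cst11 and Adam28 differed by 0.53, 0.32 and 0.24, and Cst8 and Cst12 by -0.06 and -0.02. Rnase10, which encodes a secreted protein of the epididymis, read 7.29, 4.64 and 5.44 in Prss55-/- and 8.60, 8.80 and 8.71 in wt, a difference of -2.91 (SE 0.64, limma adjusted p = 0.0925). Its reading on replicate 2 was not well above background, so the size of this difference is not fully measured.

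The Leydig cell list had the same order. The 4 Leydig cell genes on the array, Cyp17a1, Cyp11a1, Star and Lhcgr, were each lowest on Prss55-/- replicates 2 and 3. Star, which brings cholesterol into the mitochondria for steroid synthesis, read 12.68, 10.49 and 10.46 in Prss55-/- and 12.05, 11.42 and 12.34 in wt. Cyp11a1 read 12.75, 11.76 and 11.99 against 12.89, 12.59 and 12.87. The list summed to 15.05, 14.25 and 14.39 in Prss55-/- and 15.11, 14.80 and 15.11 in wt, and none of its genes passed the adjusted threshold (median difference -0.59). Its part in the defensin results was not tested. The 9 germ cell and 6 Sertoli cell genes had median differences of -0.0017 and 0.0091, and none passed. Their lists were level, with sums of 20.63 to 20.72 against 20.71 to 20.76 and of 17.54 to 17.57 against 17.55 to 17.65.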

How the data were processed

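Per the labels, the authors extracted total testis RNA and scanned the arrays with Agilent Feature Extraction 10.7. The deposited scanner values used here are processed intensities, which the software had background-corrected. A deposited matrix of log2 values correlated at 0.9997 or more with the log2 intensities of the matching array and served as an alternative. Control spots and spots with outlier flags were dropped. Intensities under 1 were raised to 1, taken to log2 and quantile-normalized, the normalization of the study's methods, and replicate spots were averaged per probe. The detection call was that of the software (gIsWellAboveBG). Probes called on every array of at least 1 genotype were compared in limma 3.58.1 (R 4.3.3, two-sided moderated test, Benjamini-Hochberg over 28606 probes), and tables were made in Python 3.11.15. A genotype with no detected array was set, array by array, to the lowest detected signal or its own if higher, and the fold was given as a bound. Precision is limited by the 3 arrays a genotype.

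The text names Prss55, each defensin gene tested or detected on at least 1 array, and up to 4 genes a list with the highest signal. Others were named after their values were seen, among them Mmp7, Slpi, Rnase10, Defb42 and the undetected defensins and markers. The members, lists and tests were chosen with earlier results of these data known. A gene stood for its probe of highest mean signal. Positions are those of the array files, in mm9. RefSeq symbols (GRCm38.p6) were used for names only and matched 36 of the 43 probes by accession. The probe sequences are those of the array files. The fit was tested on simulated data. Alternatives on normalization, background, filter, detection call, slide, replicate block, test and left-out arrays were run.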

Additional observations from a re-analysis of the deposited data

How the results depend on the processing

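The count of defensin genes past the adjusted threshold, 0 in limma over all 6 arrays with 3 at an unadjusted p below 0.05, stayed 0 in every alternative that kept Prss55-/- replicate 1, the methods' t-test with 0 included. Over the single left-out arrays it ran from 0 to 5, and it was 11 with the detection filter repeated on the arrays left after removing replicate 1, an alternative chosen after seeing the data. The count at an unadjusted p below 0.05 and 2-fold, 3 over all arrays, was 1 with no filter on dim probes, 1 with the laxer detection call (gIsPosAndSignif), 1 with a random block for the slide, 1 in the methods' t-test, and 1 to 5 over the left-out arrays. It was 11 with the repeated filter. Defa20 was the gene left in each case of 1.

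Prss55 was lower in every setting, but its adjusted p was 0.0713 in the methods' t-test on the same difference of -0.90. The difference was -0.956 to -0.837 over the left-out arrays, and its limma adjusted p was above 0.05 without Prss55-/- replicate 2 or 3 (0.0596 and 0.0698) or wt replicate 1 (0.0627). Samples of the same replicate number did not deviate together (correlations -0.05, -0.02 and -0.11), so the numbers were not taken as pairs. With a replicate block the counts of defensin genes stayed 0 and 3, and the difference of -0.90 for Prss55 had a limma adjusted p of 0.101.

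Defb20 changed sign, from -0.02 to 0.062 with scaling to the 75th percentile. Over the left-out arrays it ran from -0.133 to 0.0532, and it was 0.0002, 0.010 and 0.0532 without Prss55-/- replicate 2, wt replicate 2 or wt replicate 3. Defb36 changed to 0.0065 with normexp background correction. Of 163 recalculations of single defensin genes, 153 kept their direction and side of the threshold and 5 newly passed it, all without Prss55-/- replicate 1. The cause of these shifts was not tested. Few probes near background can be compared, since 31 of 43 defensin probes were not tested. With the laxer detection call, 18 defensin probes rather than 12 were detected on all 3 arrays of at least 1 genotype.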
